A study of Mus musculus with 8 samples.

Results

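The let-7 and miR-98 family was measured here in the amygdala of mice with and without recent fear conditioning, through every array probe that carries a mouse let-7 or miR-98 name. The members were chosen by name alone, with any arm or locus suffix, and came to 20 of the 1034 probes with a mouse miRNA name, out of 2607 capture probes in all. Of the 20 probes, 9 are for the main arms (mmu-let-7a, mmu-let-7b, mmu-let-7c, mmu-let-7d, mmu-let-7e, mmu-let-7f, mmu-let-7g, mmu-let-7i and mmu-miR-98, written below without the species prefix). The other 11 are for the arms marked with an asterisk in the array's naming, which come from the opposite side of the same hairpins.

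MicroRNAs are short RNAs that guide Argonaute proteins to partly complementary messenger RNAs and lower their output, and they find these targets mainly through the seed, a short run of bases near the 5′ end. The let-7 family shares 1 seed across several genes and is abundant in the adult brain. The Lin28 proteins bind let-7 precursors and block their maturation, and the mature miRNAs are known for restraining growth and pluripotency genes such as Lin28a, Hmga2 and Igf2bp1.

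The study compared adult male C57/Bl6J mice left in the home cage (4 mice) with mice of the same kind killed 30 min after auditory fear conditioning (4 mice), in which a 6 kHz tone was paired 5 times with a shock of 0.6 mA. Amygdala tissue was taken from both sides of each brain with a 1 mm punch, and 500 ng of each animal's RNA carried the green dye Hy3. A pool of RNA from all the animals carried Hy5, and both were hybridised to locked nucleic acid probes, which bind short RNAs tightly. The home cage mice received neither tone nor shock, so what belongs to learning and what to the stimuli alone cannot be told apart. In a tissue punch, fewer cells of a type and less RNA per cell cannot be told apart.

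The mature sequences show how alike the members are, and are given because the probes have to separate them. All 20 probes were matched by name to the RefSeq annotation of GRCm38.p6. The 9 main arms follow, 5′ to 3′, with the seed (bases 2 to 8) in capitals.
let-7a: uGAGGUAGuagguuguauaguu
let-7b: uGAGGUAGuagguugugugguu
let-7c: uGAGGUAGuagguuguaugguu
let-7d: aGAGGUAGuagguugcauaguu
let-7e: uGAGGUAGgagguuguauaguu
let-7f: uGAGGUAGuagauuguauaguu
let-7g: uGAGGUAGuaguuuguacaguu
let-7i: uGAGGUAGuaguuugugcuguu
miR-98: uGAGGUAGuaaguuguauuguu
All 9 carry the seed GAGGUAG and are 22 bases long. Counted from 1 at the 5′ end, with the base of let-7a first, let-7c differs from let-7a by A19G, let-7e by U9G and let-7f by G12A. Let-7b differs by A17G and A19G, let-7d by U1A and U16C, let-7g by G12U and U18C, and miR-98 by G11A and A19U. Let-7i differs at 4 positions, G12U, A17G, U18C and A19U. Of the 36 pairs of main arms, 4 differ at 1 base and the most distant pair differs at 6. The capture sequences were not used here, and binding of one member's RNA to another member's probe was not tested.

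The genes lie at several places in the mouse genome, given here for GRCm38.p6 as the position of the mature RNA. Let-7a (chr13:48538239-48538260, minus strand), let-7f (chr13:48537889-48537910, minus strand) and let-7d (chr13:48536078-48536099, minus strand) sit together within 10 kb. A further let-7f copy (chrX:151912353-151912374, plus strand) lies beside miR-98 (chrX:151913229-151913250, plus strand) inside the gene Huwe1. Let-7b (chr15:85707325-85707346, plus strand) lies beside a let-7c copy (chr15:85706616-85706637, plus strand) in the long noncoding RNA gene Lncppara. The other let-7c copy (chr16:77599672-77599693, plus strand) has miR-99a as its neighbour. Let-7e (chr17:17830366-17830387, plus strand) shares a stretch inside Spaca6 with miR-99b and miR-125a. Let-7g (chr9:106178846-106178867, plus strand) lies inside Wdr82, and let-7i (chr10:122985698-122985719, minus strand) has no annotated miRNA gene within 10 kb. Let-7a has a further gene on chromosome 9, beside miR-100 in Mir100hg, whose asterisk arm lies at chr9:41536777-41536797 (plus strand). A mature RNA that comes from 2 genes, as let-7a, let-7c and let-7f do, has 1 probe, so the genes were measured together.

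Each array held 12312 spots, with 4 spots for every member probe. Hy3 values are log2 spot signals after background correction with an offset of 50 and quantile normalization, averaged over a probe's spots, so a value is compared between arrays and not between probes. A probe is called above the negative controls on an array where it exceeded their 95th percentile. Between 565 and 657 mouse probes per array did so, and the number of arrays limits the precision. On the tissue label, 8 of the 10 probes for neuronal miRNAs (miR-124, miR-9, miR-128 and miR-138) exceeded the negative controls on all 8 arrays. So did 480 of all 1034 mouse probes, while 262 did so on no array. Of the leukocyte probes 4 of 6 did so on all 8 arrays, and of the red blood cell probes 2 of 3. Of the 2 probes for the liver miRNA miR-122, 1 also did so and 1 did not on any array. Home cage array 1 stood apart: its mean correlation with the other arrays was 0.977, against 0.990 to 0.994 for the rest. It bore a patch of raised local background described below, so values without this array are given beside the member differences it moves. Because slide numbers run separately in each group, the order of the slides and the group cannot be told apart.

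All 9 main arms exceeded the negative controls on all 8 arrays, beside 480 of all 1034 mouse probes. None of the 9 differed between the groups at an adjusted p under 0.05. In limma's test over all 1034 mouse probes, with Benjamini-Hochberg adjustment, 0 of the 20 member probes passed, beside 0.193% of all mouse probes (2 probes). At an unadjusted p under 0.05 there were 4 of 20 member probes, let-7b, let-7f, miR-98 and let-7e*, beside 14.1% of all mouse probes. Over the main arms the Hy3 difference, fear conditioned minus home cage, was above 0 for 7 (47.7% of all mouse probes were) and below 0 for 2, with a median of 0.09 beside -0.0043 over all mouse probes. Without home cage array 1 it was above 0 for 4 (48.6% of all mouse probes were) and below 0 for 5, with a median of -0.027. The sign of the family's median turned with that 1 array.

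Let-7f had the widest gap between the groups among the main arms. Its Hy3 values were 8.22, 9.30, 9.25 and 9.23 on home cage arrays 1 to 4. After conditioning they were 9.55, 9.47, 9.50 and 9.71. All 4 fear conditioned arrays were above all 4 home cage arrays, and home cage array 1 was at -1.04 relative to the others of its group. The difference was 0.56 (SE 0.234, 95% interval 0.01 to 1.10, limma adjusted p = 0.344). Without home cage array 1 it was 0.30 (SE 0.0574, 95% interval 0.16 to 0.43, limma adjusted p = 0.0954), smaller in size but with a narrower error, and still not past the threshold.

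MiR-98, whose gene lies beside a let-7f copy on the X chromosome, gave a like pattern. Its Hy3 values were 9.01, 9.70, 9.69 and 9.74 in the home cage group and 9.99, 9.84, 9.84 and 10.004 after conditioning. The groups did not overlap. The difference was 0.39 (SE 0.160, limma adjusted p = 0.344) over all arrays and 0.21 (SE 0.0491, limma adjusted p = 0.127) without home cage array 1.

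Let-7a, the sequence the others are compared with above, also had groups that did not overlap. It measured 9.53, 10.31, 10.38 and 10.27 in the home cage group and 10.45, 10.42, 10.42 and 10.43 after conditioning. The fear conditioned values lay close together, while the home cage values spread widely, with array 1 the lowest. The difference was 0.31 (SE 0.174, limma adjusted p = 0.432), and 0.11 (SE 0.0297, limma adjusted p = 0.171) without that array.

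Let-7b, with 2 changed bases in its 3′ part, was the main arm with the most negative difference. Its Hy3 values were 10.36, 10.59, 10.66 and 10.43 in the home cage group and 10.15, 10.25, 10.33 and 10.47 after conditioning. The groups overlapped, with the highest fear conditioned array above the 2 lowest home cage arrays. The difference was -0.21 (SE 0.0861, limma adjusted p = 0.344), and -0.25 (SE 0.0843, limma adjusted p = 0.25) without home cage array 1. With each array centred on its median in place of quantile normalization the sign turned, to 0.17.

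Let-7g was the other main arm with a negative Hy3 difference. It measured 11.18, 11.01, 11.06 and 10.81 in the home cage group against 10.78, 10.93, 10.82 and 11.06 after conditioning, and the groups overlapped. Home cage array 1 was here the highest array, not the lowest. The difference was -0.12 (SE 0.0875, limma adjusted p = 0.544), and -0.062 (SE 0.0823) without home cage array 1. It turned to 0.22 with median centring.

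Let-7c, let-7e and let-7i changed sign with the array that stood apart. Let-7c measured 9.93, 11.02, 11.04 and 11.03 against 10.99, 11.003, 11.10 and 10.92, with 7 of the 8 arrays close together. Its difference was 0.25 (SE 0.243) with home cage array 1 and -0.027 (SE 0.0404) without it. Let-7i measured 9.51, 10.49, 10.46 and 10.23 against 10.17, 10.16, 10.33 and 10.38. Here too only home cage array 1 lay outside the range of the other arrays by more than 0.5, and the difference moved from 0.090 (SE 0.208) to -0.13 (SE 0.0819). Let-7e, the member encoded with miR-99b and miR-125a, measured 10.07, 10.60, 10.59 and 10.46 against 10.51, 10.44, 10.55 and 10.505. Its difference moved from 0.072 (SE 0.112) to -0.048 (SE 0.0433).

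Let-7d, encoded with let-7a and let-7f on chromosome 13, was even across the arrays. It measured 10.19, 10.30, 10.43 and 10.22 in the home cage group and 10.37, 10.27, 10.27 and 10.40 after conditioning. The groups overlapped, and the difference was 0.043 (SE 0.0577, 95% interval -0.090 to 0.18, limma adjusted p = 0.736). It was 0.013 (SE 0.0576) without home cage array 1. Let-7a, let-7d and let-7f, which share a neighbourhood on chromosome 13, thus had differences of 0.31, 0.043 and 0.56.

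**Figure D1:**
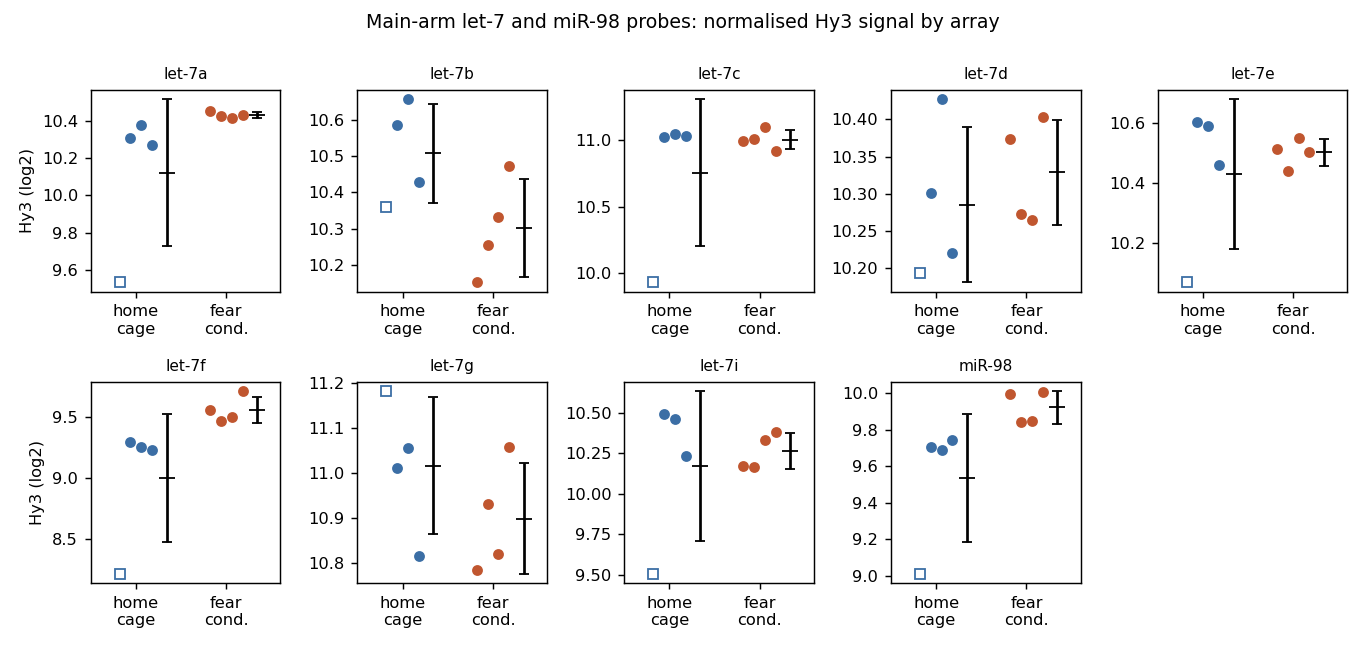
Normalised log2 Hy3 signal of the 9 main arms on each of the 8 arrays, with the home cage arrays in blue, the fear conditioned arrays in orange, home cage array 1 as an open square, and bars for the mean ± SD of each group; each panel has its own scale. Home cage array 1 lies far below the other arrays for let-7c (9.93), let-7f (8.22) and let-7i (9.51), while it is close to the others for let-7d (10.19) and highest for let-7g (11.18).

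Counted over all 20 probes, the Hy3 values left no overlap between the groups for 4 (let-7a, let-7f and miR-98 higher after conditioning and let-7e* lower), beside 9.47% of all mouse probes with a value on all 8 arrays (4.09% higher and 5.38% lower). Without home cage array 1 there were 6, beside 15.3% of all mouse probes. They were let-7a, let-7f, miR-98 and let-7a-2* on the higher side, and let-7c-1* and let-7e* on the lower side.

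**Figure D2:**
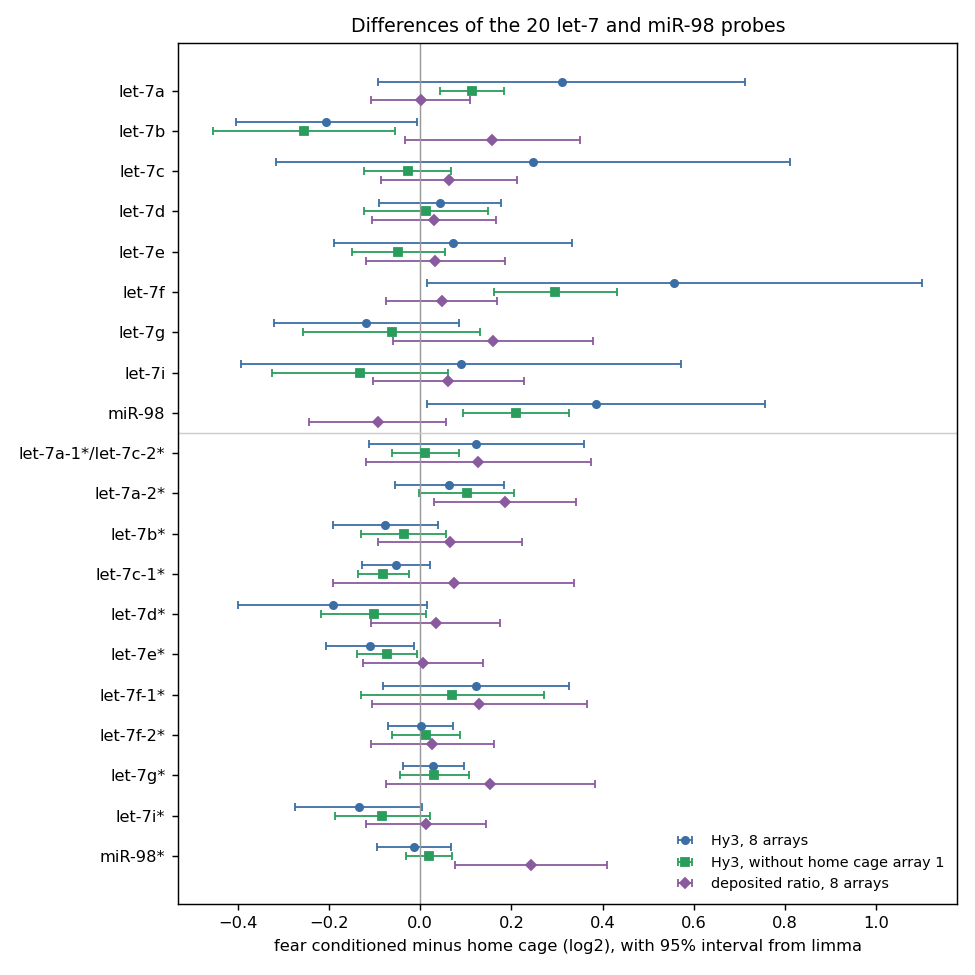
Difference in log2 Hy3 signal, fear conditioned minus home cage, for the 20 member probes, with 95% intervals from limma, over all 8 arrays (circles) and without home cage array 1 (squares), beside the difference in the deposited ratio (diamonds). The interval of let-7f shrinks from 0.01 to 1.10 with all arrays to 0.16 to 0.43 without that array, and let-7c moves from 0.25 to -0.027.

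The drop on home cage array 1 was then followed to single spots. Of the 36 printing blocks, blocks 31, 34, 35 and 36 of this array had a median local background of 231, 277, 280 and 247 intensity units, where no other array exceeded 54 in them. Bright capture spots in those blocks were lower than on the other home cage arrays by a median log2 difference of -1.59, -2.36, -2.24 and -2.07. On the whole array 14.1% of spots had a local background over 1.2 times the array's median, against 0.211% to 3.90% on the others. Of the 80 member spots 14 were among them, against 0 to 4 on the other arrays.

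For let-7e and let-7i the drop lay in the patch. The 2 let-7i spots in block 13 were 0.24 and 0.12 above the other home cage arrays, while the 2 in block 31 were at -1.24 and -2.68, beside local backgrounds of 65 and 201. The 2 let-7e spots outside the patch were at 0.17 and 0.15, and the 2 inside it at -0.55 and -1.70. With spots of raised background left out, home cage array 1 stood at 0.075 for let-7e and 0.10 for let-7i relative to its group.

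For let-7f and miR-98 the drop was as large in spots with ordinary background. The 4 let-7f spots were at -0.93, -0.998, -1.03 and -1.22, beside local backgrounds of 51 to 54, and the 4 miR-98 spots at -0.80, -0.71, -0.66 and -0.64, beside 50 to 53. Let-7c showed both: its spots in block 13 were at -0.44 and -0.57, and those in block 31 at -1.43 and -1.95. Let-7a had no spot in the patch blocks. Its spots in block 15 were at -0.52 and -0.59. Those in block 33 were at -0.60 and -1.42, beside local backgrounds of 52 and 67. Using only blocks 1 to 18, away from the patch, 4 of the 9 main arms were at least 0.5 below the other home cage arrays on home cage array 1, beside 2.90% of the mouse probes that were above those controls throughout. These 4 were let-7a, let-7c, let-7f and miR-98. In those blocks alone the group difference was 0.56 for let-7f (limma adjusted p = 0.259), 0.40 for miR-98 and 0.28 for let-7a. The groups of let-7a overlapped there, with 10.33 on fear conditioned array 4 and 10.36 on home cage array 3.

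**Figure D3:**
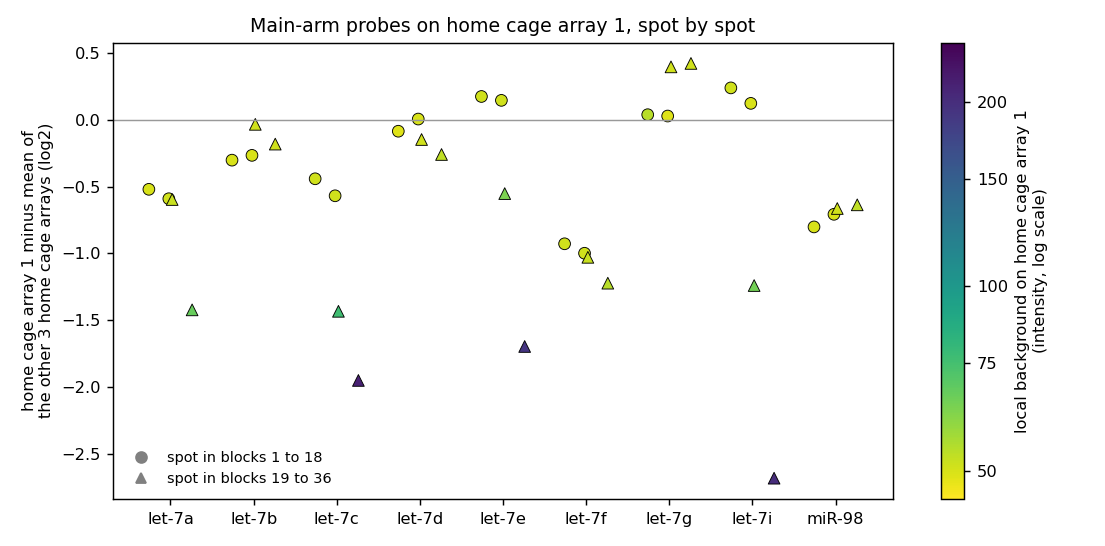
Log2 Hy3 signal of each main-arm spot on home cage array 1 minus the mean of the same spot on the other home cage arrays, as circles for blocks 1 to 18 and triangles for blocks 19 to 36, with the colour giving the local background intensity. The let-7i spots divide into a pair near 0 and a pair at -1.24 and -2.68, whereas all 4 let-7f spots lie between -0.93 and -1.22.

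The deposited log ratios of sample to pool gave another reading of the same arrays. They are taken here as log2 with the sample over the pool, since neither base nor normalization is stated for them. By limma 0 of the 20 member probes passed, beside 0% of all mouse probes, and 2 of 20 had an unadjusted p under 0.05 (let-7a-2* and miR-98*), beside 7.65%. The ratio was higher after conditioning for 19 of 20 members, against 63.2% of all mouse probes. Most of these differences were small: the median over the main arms was 0.047, beside 0.031 over all mouse probes. Without home cage array 1 it was 0.017, below the 0.022 over all mouse probes.

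The members with the widest Hy3 gaps showed little difference in the ratio. For let-7f the ratios were -0.14, -0.086, -0.20 and -0.24 in the home cage group and -0.069, -0.12, -0.17 and -0.11 after conditioning. These groups overlapped, and the difference was 0.047 (SE 0.0548, 95% interval -0.075 to 0.17). MiR-98 went the other way from its Hy3 signal, with ratios of -0.019, -0.19, 0.024 and -0.14 against -0.24, -0.10, -0.25 and -0.11, a difference of -0.093 (SE 0.0677, limma adjusted p = 0.719). For let-7a the difference was 0.00095 (SE 0.0491), with all 8 ratios between -0.15 and -0.052. Home cage array 1 did not stand apart in the ratios of these 3 members: it was -0.00048 from the mean of the other home cage arrays for let-7a, 0.036 for let-7f and 0.085 for miR-98.

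Let-7b and let-7g, the main arms with negative Hy3 differences, had the highest ratio differences among the main arms. Let-7b had ratios of 0.019, 0.26, 0.22 and 0.045 in the home cage group and 0.21, 0.34, 0.15 and 0.48 after conditioning. The groups overlapped, and the difference was 0.16 (SE 0.0863, limma adjusted p = 0.621), opposite in sign to its Hy3 difference of -0.21, and 0.12 without home cage array 1. For let-7g the ratio difference was 0.16 (SE 0.0989, limma adjusted p = 0.667), with the highest value, 0.47, on fear conditioned array 4. The remaining main arms, let-7c, let-7d, let-7e and let-7i, had ratio differences between 0.030 and 0.064. Leaving out home cage array 1, these were 0.014 for let-7c, 0.013 for let-7d, 0.071 for let-7e and 0.017 for let-7i. Let-7e was above the pool on every array, from 0.25 to 0.50. So were let-7b, from 0.019 to 0.48, and let-7i, from 0.065 to 0.39. The pool held RNA from all the animals, and whether the dyes or the normalization gave such an offset was not tested.

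**Figure D4:**
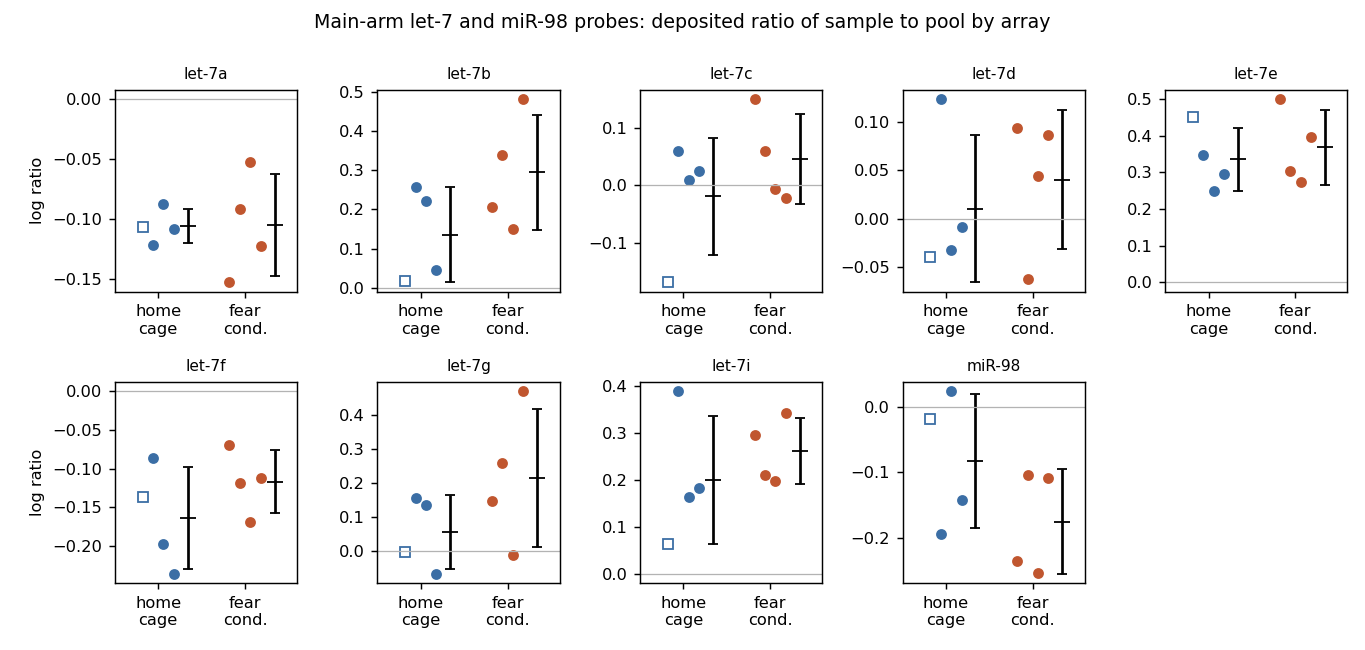
Deposited log ratio of sample to pool for the 9 main arms on each array, by group, with bars for the mean ± SD, home cage array 1 as an open square and a scale of its own in each panel. The home cage and fear conditioned arrays overlap for every main arm, and let-7f (-0.14) and miR-98 (-0.019) are not lowest on home cage array 1.

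The 11 asterisk arms were dim. Of these, 5 (let-7a-2*, let-7b*, let-7d*, let-7e* and let-7i*) exceeded the negative controls on all 8 arrays, beside 480 of all 1034 mouse probes. The probe shared by let-7a-1* and let-7c-2*, let-7c-1* and let-7f-1* did so on 7 arrays, miR-98* on 6, let-7f-2* on 3 and let-7g* on none. In the 5 probes above the controls throughout, home cage array 1 was the highest home cage array, opposite to most main arms. Differences of probes this near the controls are understated by the offset. Leaving out flagged spots left as few as 1 spot on some array for let-7a-2*, let-7e*, let-7f-1* and miR-98*. The let-7a-2* value on home cage array 1 is from 1 spot. The sequences for 3 of the asterisk arm probes follow, with the seed in capitals.
let-7e*: cUAUACGGccuccuagcuuucc
let-7a-1* and let-7c-2*: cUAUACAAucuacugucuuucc
miR-98*: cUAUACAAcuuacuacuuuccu
The probe named for both let-7a-1* and let-7c-2* stands for 2 identical sequences. The seed UAUACAA is carried by 5 of the asterisk arm sequences, those of let-7a-1, let-7c-2, let-7b, let-7f-1 and miR-98, and each of the other seeds by 1.

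Let-7e* was the 1 asterisk arm whose Hy3 groups did not overlap over all 8 arrays. It measured 6.84, 6.73, 6.69 and 6.64 in the home cage group and 6.58, 6.64, 6.61 and 6.63 after conditioning. The nearest arrays of the groups were close to each other (6.644 and 6.637), and the difference was -0.11 (SE 0.0415, limma adjusted p = 0.344), or -0.073 without home cage array 1. With spots of raised background left out, and in blocks 1 to 18 alone, its groups overlapped. Among the asterisk arms, let-7c-1* had no overlap in the first of these settings, with a difference of -0.11. In blocks 1 to 18 the probe of let-7a-1* and let-7c-2* (0.077) and let-7d* (-0.16) had none. Of all mouse probes with a value on all 8 arrays, 12.5% had no overlap in the first setting and 10.3% in the second. The ratio difference of let-7e* was 0.0066 (SE 0.0592), and 0.035 without home cage array 1. The main arm let-7e, from the same hairpin, had a Hy3 difference of 0.072.

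Let-7d*, from the hairpin of let-7d, was highest on home cage array 1. It measured 7.54, 7.21, 7.18 and 7.16 against 7.03, 6.99, 7.18 and 7.13, a difference of -0.19 (SE 0.0893, limma adjusted p = 0.378) that was -0.10 without that array. Let-7i* measured 7.08, 6.88, 6.90 and 6.83 against 6.73, 6.73, 6.80 and 6.89, a difference of -0.13 (SE 0.0602, limma adjusted p = 0.363) that was -0.083 without home cage array 1. Both pairs of groups overlapped. Let-7b* measured 6.88, 6.74, 6.71 and 6.70 against 6.66, 6.63, 6.64 and 6.78, a difference of -0.076 (SE 0.0499), and of -0.036 without that array. Let-7a-2* measured 6.88, 6.77, 6.63 and 6.78 against 6.78, 6.82, 6.83 and 6.89, a difference of 0.064 (SE 0.0514) in Hy3, which was 0.10 without home cage array 1. In the ratio it differed by 0.19 (SE 0.0701, limma adjusted p = 0.594), and by 0.19 (SE 0.0770, limma adjusted p = 0.373) without that array. Of the asterisk arms below the controls on some array, the probe of let-7a-1* and let-7c-2* differed by 0.12 in Hy3 (0.011 without home cage array 1), let-7f-1* by 0.12 (0.070) and let-7c-1* by -0.053 (-0.080). Let-7f-2* and let-7g* differed by 0.00096 and 0.029.

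**Figure D5:**
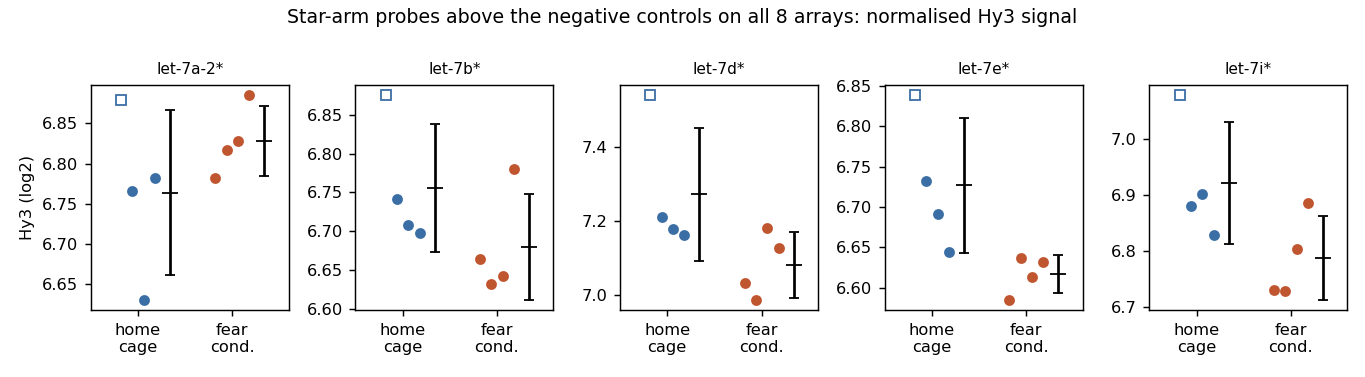
Normalised log2 Hy3 signal of the 5 asterisk arms above the negative controls on all 8 arrays, by array and group, with bars for the mean ± SD and home cage array 1 as an open square. Let-7e* is the probe whose groups do not overlap, and let-7d* is highest on home cage array 1 at 7.54.

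MiR-98* had the smallest unadjusted p among the member ratios. Its ratios were -0.060, -0.30, -0.40 and -0.33 in the home cage group and -0.048, -0.047, -0.057 and 0.041 after conditioning. All 4 fear conditioned arrays were higher, and home cage array 1 lay next to them. The difference was 0.24 (SE 0.0750, limma adjusted p = 0.584), and 0.31 (SE 0.0580, limma adjusted p = 0.0918) without that array. It was the 1 member of 20 whose ratios did not overlap, beside 5.43% of all mouse probes. In Hy3 signal the same probe differed by -0.013 (SE 0.0347) and exceeded the negative controls on 6 of 8 arrays.

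The miR-99/100 and miR-125 miRNAs have 11 probes. MiR-99a, miR-99b, miR-100 and miR-125a have a gene within 10 kb of a let-7 gene, and miR-125b, which has none that near, was listed with them. By limma 0 of the 11 passed in either reading, with 2 at an unadjusted p under 0.05 in Hy3, beside 14.1% of all mouse probes. Their Hy3 differences were above 0 for 3 (47.7% of all mouse probes were) and below 0 for 8, with a median of -0.057 beside -0.0043 over all mouse probes. With home cage array 1 left out they were above 0 for 1 (48.6% of all mouse probes were) and below 0 for 10. Their median was then -0.066, beside -0.0021 over all mouse probes. Of the 11, 1 had an unadjusted p under 0.05 by limma, beside 15.3% of all mouse probes. MiR-100, the neighbour of a let-7a gene in Mir100hg, measured 7.10, 8.24, 8.27 and 8.18 against 8.09, 8.15, 8.09 and 8.35. Its difference of 0.22 (SE 0.255) rested on home cage array 1, as in let-7c, and was -0.059 without it. MiR-99a, the neighbour of let-7c, measured 7.92 on that array and between 8.71 and 8.90 on the others, and its difference moved from 0.16 to -0.074. The neighbours of let-7e differed by -0.20 (SE 0.0960) for miR-125a-5p and -0.14 (SE 0.0564) for miR-99b, and by -0.14 each without home cage array 1. MiR-125b-5p differed by -0.10 (SE 0.0799), and by -0.044 without that array. In the deposited ratio the differences were above 0 for 9 of the 11 (63.2% of all mouse probes were). There 2 had an unadjusted p under 0.05 by limma, miR-125a-5p and miR-125b-1-3p, beside 7.65% of all mouse probes. Without home cage array 1 the ratio differences were above 0 for 6 and below 0 for 5, beside 609 of 1033 mouse probes above 0. Of the 11, 1 then had an unadjusted p under 0.05 by limma, beside 130 of the 1033. The ratio groups of miR-125b-1-3p did not overlap, beside 5.43% of all mouse probes. In Hy3 that probe differed by -0.073 (SE 0.0459), the other way, and its groups overlapped. The Hy3 groups of miR-99a* did not overlap, beside 9.47% of all mouse probes. Its Hy3 difference was -0.12 (SE 0.0399, limma adjusted p = 0.301), and -0.090 without home cage array 1. In the ratio the miR-99a* groups overlapped.

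MiR-1961, which RefSeq lists with the let-7 seed but which is not named as a family member, differed by 0.11 in Hy3 (SE 0.0672, limma adjusted p = 0.470) and exceeded the negative controls on 8 arrays. Of the 11 mouse mature miRNAs listed with this seed, 9 are the main arms above, and let-7k was not analysed here.

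The probes most like the family were ranked by Pearson's r over the 8 arrays with the mean of the 9 main arms, among 466 other mouse probes that passed the negative controls on every array. In Hy3 signal they were miR-30b (r = 0.990), miR-140* (0.985), miR-100 (0.984), miR-29c (0.973) and miR-9* (0.965). All 5 were low on home cage array 1, by between -0.81 and -1.23 relative to the other home cage arrays, and without that array their r fell to between 0.586 and 0.826. In the ratio they were miR-24 (0.936), miR-126-5p (0.922), miR-210 (0.912), miR-27b (0.908) and miR-194 (0.905), and none of these 5 is in the Hy3 list. The arrays and their normalization are shared by all probes, and these values describe 8 arrays. The mean Hy3 signal of the 9 main arms itself was 9.78 on home cage array 1 and between 10.27 and 10.43 on the other 7 arrays.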

How the data were processed

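The authors deposited scanner files with spot and local background intensity for 1 channel, per the file headers, and a value table of sample over pool on a log scale, taken as log2. The channel was taken as Hy3 because it lights the Hy3 landmark spots (medians of 3581 to 4422 against 70.8 to 77.8 for capture spots). Its deviations from each probe's mean correlate positively with those of the ratio on every array (r of 0.341 to 0.739 over 480 probes), from which the ratio's direction was taken. Over 20 probes with wide ratio ranges the median slope of log2 Hy3 on the ratio was 0.709. The ratio columns have medians of 0.0014 to 0.029 and 15 to 26 missing values. How the ratios were normalized and their log base are not given in the sources used, and the Hy5 intensities were not used here.

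As the scanner files hold 1 channel, the fallback written for that case was used in place of loess. Spots were corrected with normexp (offset 50), those flagged 3 or 4 left out, and capture spots quantile normalized, in limma 3.58.1 under R 4.3.3. Spots of a probe were averaged. Groups were compared with lmFit and eBayes (two-sided) over all mouse probes with at least 2 values per group, 1034 in Hy3 and 1033 in the ratio. The script was tested on simulated data. Named were every member, the neighbouring miRNAs' main arms and the 5 most similar probes in each reading. Any other probe named was chosen after its values were seen. The members and lists were chosen with earlier results of these data known. Each sample is 1 animal per the labels. Marker lists for neurons, oligodendrocytes, choroid plexus, red blood cells, leukocytes, liver and muscle held 10, 5, 6, 3, 6, 2 and 7 probes. Of these, 8, 4, 3, 2, 4, 1 and 2 exceeded the negative controls on all arrays and 0 passed. Over all 1034 mouse probes, 480 exceeded them on all arrays and 2 passed. Sequences are from RefSeq. Alternatives changed the offset, background subtraction, scaling, spots, probe filter, array weights, replicate block and arrays. Figures were drawn with matplotlib 3.10.9.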

Additional observations from a re-analysis of the deposited data

Results flagged for a closer look

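In each group of 4 arrays, a value was marked where its gap to the nearest other array exceeded Dixon's 95% critical share of the group's range. Of 80 groups compared (20 probes in 2 groups and 2 readings), 10 were marked, where chance marks about 1 in 20 of independent groups. Of the 10, 8 were on home cage array 1. The 80 groups share the same 8 arrays, and the share marked over all mouse probes was not computed. The count is therefore not a result for the family. In Hy3 signal, home cage array 1 was lowest of the 8 for 7 of the 9 main arms. It was also lowest for 19.6% of the 480 mouse probes that cleared the negative controls each time.

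In Hy3 signal, home cage array 1 was far below its group for let-7a at 9.53 (nearest array 10.27), let-7c at 9.93 (11.02), let-7f at 8.22 (9.23) and miR-98 at 9.01 (9.69). It was also lowest for the probe of let-7a-1* and let-7c-2*, at 6.42 (6.84). It was far above its group for let-7d* at 7.54 (7.21) and miR-98* at 6.59 (6.47).

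In the ratio, let-7c-1* stood at -0.49 on home cage array 1, against 0.041 on the nearest array. Let-7i* was lowest on home cage array 4, at -0.26 (nearest -0.13), and miR-98* was highest on fear conditioned array 4, at 0.041 (nearest -0.047).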

How the results depend on the processing

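No member passed an adjusted p of 0.05 by limma under any alternative run: the lowest was 0.0954 in Hy3 (let-7f without home cage array 1) and 0.0918 in the ratio (miR-98* without that array). Let-7a, let-7d, let-7f and miR-98 kept the sign of their Hy3 difference in all alternatives. The count over all mouse probes, 2, became 0 without background subtraction, with median centring, with spike-in centring and with the replicate block, 1 with flagged spots kept or with only probes above the negative controls on 4 arrays, 4 with the median over spots, and 12 with array weights. Leaving out 1 array gave 0 to 2. Leaving out spots of raised background, or using blocks 1 to 18 only, both added after seeing the data, gave 4 each. The main-arm median, 0.09, was 0.44 with median centring (9 of 9 higher), which moved the median of all mouse probes to 0.057. It was 0.17 with spike-in centring, which moved the median of all mouse probes to -0.21. It was 0.012 with array weights (5 of 9 higher), 0.046 with the median over spots and 0.051 without background subtraction. Leaving out 1 array gave -0.027 to 0.20. Before scaling, the 95th percentile of capture signal over background was 742 and 849 on fear conditioned arrays 3 and 4. It was 423 to 561 on the rest, and whether this moved the median-centred values was not tested.

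Signs that turned, where the cause was not tested: median centring gave 0.17 for let-7b, 0.22 for let-7g, 0.053 for let-7b*, 0.0066 for let-7c-1*, 0.049 for let-7d*, 0.0036 for let-7e*, 0.036 for let-7i* and 0.022 for miR-98*. Array weights gave -0.044 for let-7e, -0.13 for let-7i and 0.012 for miR-98*. No background subtraction gave -0.039 for let-7a-1*/let-7c-2*, -0.093 for let-7f-1* and -0.0056 for let-7f-2*. Spike-in centring gave -0.056 for let-7a-2*, -0.24 for let-7f-2* and -0.24 for let-7g*. Let-7f-2* was -0.0010 with offset 10, -0.026 with flagged spots kept and -0.0036 with the median over spots. With raised background left out, let-7e was -0.037 and let-7i -0.12. In blocks 1 to 18, let-7e was -0.027, let-7i -0.13 and let-7f-2* -0.020. The ratio of let-7a was -0.011 median centred and -0.00045 with array weights, and that of let-7e* -0.0050 median centred.

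Leaving out 1 array turned the sign for let-7c (-0.027 to 0.34), let-7e (-0.048 to 0.13), let-7i (-0.13 to 0.20), let-7f-2* (-0.022 to 0.015) and miR-98* (-0.027 to 0.019) in Hy3. In the ratio it did so for let-7a (-0.017 to 0.017), let-7e (-0.011 to 0.071), let-7c-1* (-0.067 to 0.13), let-7d* (-0.00032 to 0.067), let-7e* (-0.012 to 0.043), let-7f-2* (-0.0020 to 0.060) and let-7i* (-0.020 to 0.040).

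The replicate numbers gave no sign of pairing the samples. Each probe's group mean was first subtracted from its Hy3 values. What was left correlated between same-numbered arrays at -0.087, 0.031, -0.616 and 0.0046 over 480 probes. On this measure 0 of 8 arrays correlated best with its own number. The replicate block left the main-arm median at 0.09. Of the 11 asterisk arms, 6 did not exceed the negative controls on every array, and low signal limits the other 5 as well.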
